A study of Mus musculus with 8 samples.

Results

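Autotaxin, the other ectonucleotide pyrophosphatase/phosphodiesterase (Enpp) genes and the receptors for lysophosphatidic acid (LPA) are described here in mouse embryonic stem cells with and without METTL5, the enzyme that methylates an adenosine of 18S ribosomal RNA. The 9 genes are Enpp1, Enpp2, Enpp3, Enpp4, Enpp5, Lpar1, Lpar2, Lpar4 and Lpar6, taken by symbol from tables of 23845 genes. They were picked with the footprint levels of WT and KO cells in view, so their footprint differences between genotypes are given as a description and no test is read from them. The cells, labelled mESC, were WT or METTL5 KO at passages 5 to 10. Each genotype had 2 Ribo-seq libraries, which count mRNA fragments protected by ribosomes (footprints) in monosomes isolated on sucrose, and 2 RNA-seq libraries. The labels used here do not say how many KO clones were grown, so p-values measure only the spread between these libraries.

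ENPP proteins are zinc-dependent enzymes that work at the cell surface or outside the cell and cut phosphodiester bonds in nucleotides or lipids. ENPP2, or autotaxin, is secreted and removes choline from lysophosphatidylcholine, which leaves LPA, a signalling lipid. LPA acts on G protein-coupled receptors. LPAR1, LPAR2 and LPAR3 form the EDG family, and LPAR4, LPAR5 and LPAR6 resemble P2Y nucleotide receptors. In mouse development autotaxin is known for its need in the yolk sac and its blood vessels.

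The 5 Enpp genes share an active site in which a threonine attacks the substrate. The coding sequence around that threonine is shown because it is what makes these 5 genes a family, from the transcripts of the GENCODE M21 annotation, 5′ to 3′, with the threonine codon in capitals.
Enpp1: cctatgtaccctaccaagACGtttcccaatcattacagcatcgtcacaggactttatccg
Enpp2: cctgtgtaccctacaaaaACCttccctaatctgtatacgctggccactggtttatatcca
Enpp3: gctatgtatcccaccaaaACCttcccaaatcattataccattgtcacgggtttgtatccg
Enpp4: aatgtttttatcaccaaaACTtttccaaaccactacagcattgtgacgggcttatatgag
Enpp5: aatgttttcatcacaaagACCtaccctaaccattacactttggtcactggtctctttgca
Over these 60 bases Enpp3 shared 45 with Enpp2, Enpp1 shared 41, Enpp5 40 and Enpp4 33. The members could still be told apart by short reads. Of the stretches of 28 bases in the GENCODE transcripts of each gene, between 97.4% (Lpar6) and 100% (Enpp2) occurred in no transcript of another gene on the same strand, so little of their count can have been split with relatives.

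The Enpp genes lie in neighbouring pairs on GRCm38, the assembly behind mm10, apart from Enpp2. Enpp1 (chromosome 10, 24637914 to 24712159) and Enpp3 (24772406 to 24842823) are both on the minus strand with 60.2 kb and no other protein-coding gene between them. Enpp4 (chromosome 17, 44096308 to 44105809, minus strand) and Enpp5 (44078813 to 44086567, plus strand) are 9.7 kb apart. Enpp2 lies on chromosome 15, from 54838901 to 54952892 on the minus strand, and its exons overlap by 345 bp with those of the noncoding gene Gm26684 on the other strand. Lpar1 is on chromosome 4, Lpar2 on chromosome 8 and Lpar4 on the X chromosome. Lpar6 (chromosome 14, 73237895 to 73243294, plus strand) sits inside Rb1, the retinoblastoma gene, which runs on the minus strand, and 408 bp of their exons overlap in GENCODE. No source used here gives the strand setting of the counting, so reads of such pairs cannot be told apart where exons overlap.

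The Ribo-seq tables held 8401463 to 10466185 counts in WT and 9322662 to 11487964 in KO, and RNA-seq held between 152195 and 219567. In a Ribo-seq library 3 counts stood for 0.261 to 0.357 CPM, the count scaled to the library total, and in an RNA-seq library for 13.7 to 19.7 CPM, which covers counting error only. Mettl5, the targeted gene, had footprints of 41.2 and 45.9 CPM in the WT and 4.08 and 4.79 CPM in the KO, a log2 fold change of -3.27 (SE 0.22, edgeR quasi-likelihood test, adjusted p = 0.00131). In RNA-seq Mettl5 had 84 and 132 counts against 39 and 55, which did not pass (adjusted p = 0.126 by edgeR, 0.0147 with WT replicate 1 left out). All 10 stem cell markers were detected in each genotype, with 5748 and 7446 CPM in sum in WT and 7325 and 7150 CPM in KO. Dppa5a was the largest part of that sum in each library. Zfp42 lay lower in KO (1084 and 1096 CPM in WT, 754 and 691 CPM in KO). Pou5f1 lay higher in KO (712 and 636 CPM in WT, 894 and 753 CPM in KO). The other stem cell markers overlapped between genotypes, and 0 of the 10 were called by edgeR. Footprints follow both the amount of an mRNA and the ribosomes on it, and more cells of a kind cannot be told apart from more RNA in each cell.

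Enpp2 had 9.2 times the footprint level in the KO that it had in the WT. Its level was 4.97 and 2.74 CPM in the WT libraries and 34.8 and 36.7 CPM in the KO libraries, from 52, 23, 324 and 422 counts. Both KO libraries lay far above both WT libraries, and the KO pair differed less than the WT pair. The WT mean was 3.85 ± 1.58 CPM and the KO mean 35.7 ± 1.40 CPM (SD, n = 2 each). The log2 fold change was 3.20, rank 34 from the top among the 12315 genes tested, and the fold ran from 7.22 (WT replicate 2 left out) to 13.2 (WT replicate 1 left out). On the log2(CPM + 0.5) scale the KO mean stood 3.11 above the WT mean, while the WT libraries differed by -0.76 (replicate 2 minus replicate 1) and the KO libraries by 0.08. The table lists 4 transcripts for Enpp2, and RSEM weighted them to the same gene length, 3461 bases, in all 4 Ribo-seq libraries.

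Enpp3, a membrane enzyme that hydrolyses extracellular nucleotides, carried most of the family's footprints. It stood at 218 and 147 CPM in WT and at 241 and 219 CPM in KO, from 1234 to 2514 counts. The KO libraries lay above the WT libraries, but KO replicate 2 and WT replicate 1 nearly met. The means were 183 ± 50.5 CPM and 230 ± 15.6 CPM (SD, n = 2 each), and the log2 fold change of 0.34 ran from 0.08 (WT replicate 2 left out) to 0.66 (WT replicate 1 left out).

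Enpp1, which makes pyrophosphate from extracellular ATP and degrades the second messenger cGAMP, was nearly absent. It had 19 and 6 counts in WT and 3 and 7 counts in KO, that is 1.82 and 0.71 CPM against 0.32 and 0.61 CPM. The ranges did not meet, with the KO lower, but WT replicate 2 and KO replicate 2 stood 1 count apart (6 and 7). It was the only one of the 9 genes that did not pass the filter on low counts, and no fold is given for it.

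Among the Enpp genes of this set, the neighbours Enpp1 and Enpp3 stood at opposite ends in footprint level, and their upstream sequences are shown for that reason. These are the 250 bases before the RefSeq start on GRCm38.p6, 5′ to 3′ on the minus strand, at chr10:24712160-24712409 for Enpp1 and chr10:24836196-24836445 for Enpp3. The RefSeq start of Enpp3 lies inside the GENCODE span of the gene. Capitals mark matches on either strand to 3 motifs that do not overlap here, the CCAAT box (its letters as named), the TATA box searched as TATAAA, and the GC box searched as GGGCGG.
Enpp1: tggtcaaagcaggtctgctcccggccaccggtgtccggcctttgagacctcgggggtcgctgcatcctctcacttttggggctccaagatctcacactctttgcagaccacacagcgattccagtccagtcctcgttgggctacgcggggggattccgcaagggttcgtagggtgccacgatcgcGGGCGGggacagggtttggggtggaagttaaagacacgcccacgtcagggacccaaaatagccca
Enpp3: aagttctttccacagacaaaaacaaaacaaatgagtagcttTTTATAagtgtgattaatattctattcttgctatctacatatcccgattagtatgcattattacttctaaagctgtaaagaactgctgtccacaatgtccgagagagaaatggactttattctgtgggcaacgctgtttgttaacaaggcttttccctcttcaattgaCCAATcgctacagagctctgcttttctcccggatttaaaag
The Enpp1 window was 61.2% G and C with 17 CpG dinucleotides, and the Enpp3 window 36.8% with 5, against medians of 52.4% and 6 over all 32851 RefSeq windows of that length. Enpp1 had 1 GC box, and Enpp3 had 1 match each to CCAAT and TATAAA. Over all windows 33.8% held CCAAT, 12.4% TATAAA and 32.7% the GC box, on either strand. These matches describe the letters and are not evidence of binding.

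Enpp4, which cuts dinucleotide polyphosphates on vessel walls, and Enpp5, a related membrane protein, differed between genotypes by less than their replicates. Enpp4 had 5.45 and 8.93 CPM in WT and 6.87 and 5.40 CPM in the KO libraries, a log2 fold change of -0.21. The KO values lay within or just under the WT range, and the sign turned without WT replicate 2 (0.17). Enpp5 had 3.63 and 6.55 CPM in WT and 4.61 and 6.96 CPM in the KO libraries. Its log2 fold change of 0.23 turned to -0.14 once WT replicate 1 was left out and to -0.16 once KO replicate 2 was. Here the replicate 2 libraries of both genotypes were the high ones.

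**Figure D1:**
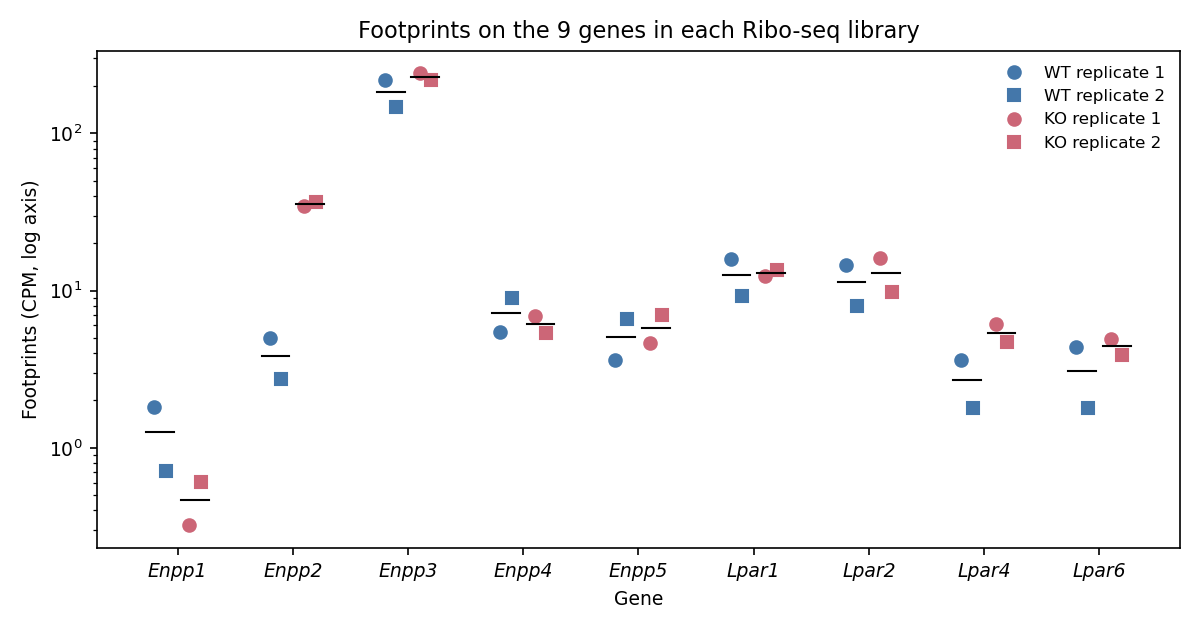
Footprints in CPM (log axis) on each of the 9 genes. Circles are replicate 1 and squares replicate 2, blue is WT and red is KO, and the bar is the mean of the 2 libraries. Enpp2 is the gene whose KO libraries (34.8 and 36.7 CPM) stand far above its WT libraries (4.97 and 2.74 CPM).

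The LPA receptors showed no change of that size. Lpar1, the widely expressed receptor of the EDG family, had 16.0 and 9.28 CPM in WT and 12.3 and 13.6 CPM in KO. Both KO values fell between the WT values, and the log2 fold change was 0.05, running from -0.29 without WT replicate 2 to 0.50 without WT replicate 1. Lpar2 had 14.6 and 7.97 CPM in WT and 16.1 and 9.75 CPM in the KO libraries, a log2 fold change of 0.18. Its level followed the replicate number, since both replicate 2 libraries were the lower ones, by -0.83 in WT and -0.69 in KO on the log2(CPM + 0.5) scale. Leaving out WT replicate 2 turned its sign (-0.19), and so did leaving out KO replicate 1 (-0.16). The genes of chromosome 8, where Lpar2 lies, had a median log2 fold change of -0.22, and with the chromosome medians removed Lpar2 stood at 0.40.

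Lpar4, a P2Y-like receptor that couples to Gs and G12/13 proteins, had the next largest difference after Enpp2 among the genes that passed the filter. It had 3.63 and 1.79 CPM in WT and 6.11 and 4.70 CPM in KO, from 38, 15, 57 and 54 counts. The groups did not overlap, and the means were 2.71 ± 1.31 and 5.41 ± 1.0 CPM (SD, n = 2 each). The log2 fold change was 0.97, and the fold of 1.96 moved to 3.03 without WT replicate 1 and 1.48 without WT replicate 2. Lpar6, the receptor whose human gene is mutated in a hereditary form of hair loss, had 4.40 and 1.79 CPM in WT and 4.93 and 3.92 CPM in KO. The KO values overlapped the WT range, and the log2 fold change of 0.49 became 1.31 once WT replicate 1 was left out and 0.01 once WT replicate 2 was. Rb1, around it, stood at 7.45 and 7.38 CPM in WT and 7.72 and 4.70 CPM in KO.

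Of the 9 genes, 8 passed the filter. The KO libraries lay above the WT libraries for 3 of them, Enpp2, Enpp3 and Lpar4, and below for 0, while among all 12315 tested genes 24.3% lay above and 25.5% below. By the edgeR quasi-likelihood test 2.44% of all tested genes were called, 1.83% with the KO higher. These shares are given as background, and no call is read for the 9 genes, since they were chosen on this contrast.

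**Figure D2:**
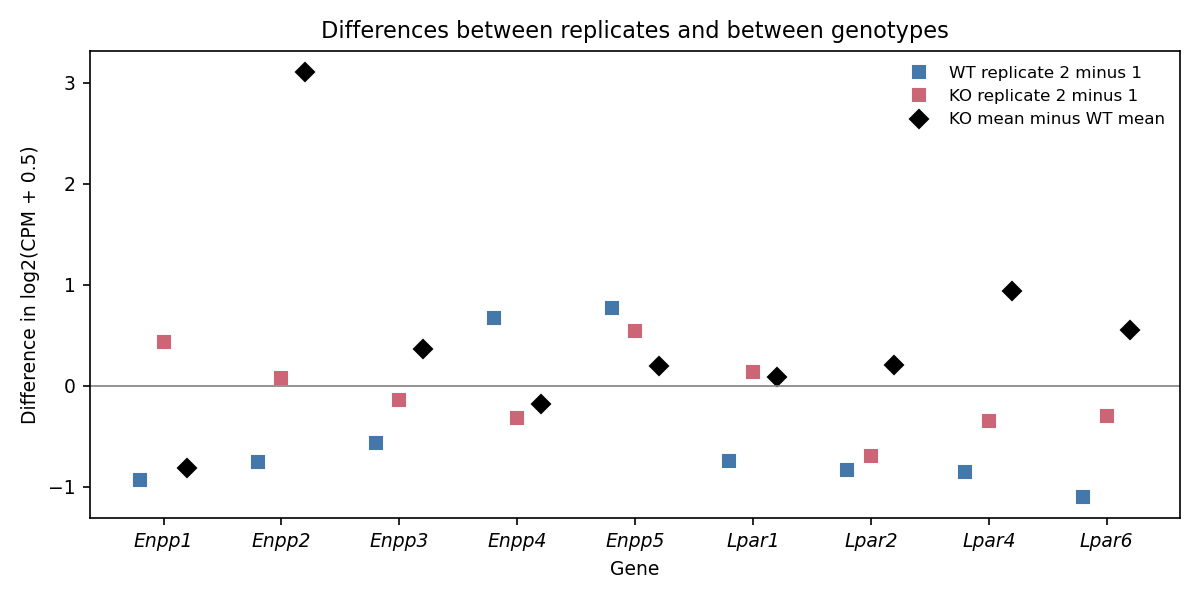
Differences in log2(CPM + 0.5) for each gene between the WT replicates (blue), between the KO replicates (red) and between the genotype means (black diamonds). For Enpp2 the genotype difference of 3.11 is several times the replicate differences of -0.76 and 0.08, whereas for each of the others except Lpar4 at least 1 replicate difference is larger in size than the genotype difference.

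The spread between the WT replicates was wide for the whole group. The WT libraries differed by 0.57 to 1.10 in size on the log2(CPM + 0.5) scale for each of the 9 genes, against a median size of 0.25 over all tested genes. In WT, replicate 2 was the lower library for 7 of them and the higher one for Enpp4 and Enpp5, the pair on chromosome 17. The KO replicates differed by 0.08 to 0.69 in size, against a median of 0.22. Most of the 9 genes had low counts, down to 6 in WT replicate 2 for Enpp1, where counting error widens such differences. No comparison with genes of like level was made.

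Levels of different genes were compared per transcript length, with the deposited TPM of the Ribo-seq libraries. Enpp3 led the family in each library, with 122 and 83.8 TPM in WT and 133 and 125 TPM in KO. It stood above 89.5% of the tested genes in WT, whose median was 9.02 TPM. Next in WT came Lpar5, a receptor outside the 9 genes, at 10.1 and 7.89 TPM, and then Lpar1 at 7.31 and 4.43 TPM, whose range lay just under that of Lpar5. Enpp5 (3.20 TPM on average), Lpar2 (3.12), Enpp4 (2.51), Lpar6 (1.98) and Enpp2 (1.76) followed, and the ranges of each neighbouring pair in that order overlapped. Lpar4 (1.01), Enpp1 (0.62) and Lpar3 (0.22) were lowest, and their ranges also overlapped from 1 gene to the next. Enpp6, which acts on choline-containing lipids, and Enpp7, the alkaline sphingomyelinase of the gut, had 0 counts in all 4 libraries, which allows up to 0.261 to 0.357 CPM.

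In KO the order was the same except for 2 genes that moved. Enpp2 went from place 8 to place 2 at 15.6 and 17.0 TPM, above Lpar5 at 9.06 and 7.69 TPM, and Enpp4 went below Lpar6. Enpp2 made up 1.74% and 1.37% of the summed TPM of the 7 Enpp genes in the WT libraries and 10.1% and 11.5% in the KO libraries. Enpp3 was 54.1 and 66.0 times higher than Enpp2 in WT and 8.54 and 7.34 times higher in KO. The summed TPM of the 6 Lpar genes was 25.6 and 16.8 in WT and 24.5 and 21.3 in KO, with overlapping ranges. Lpar5 supplied 36.1% to 47.1% of that sum and Lpar1 23.2% to 29.8%. Lpar5 had a log2 fold change of -0.08 between genotypes (edgeR quasi-likelihood test, adjusted p = 0.91), and with the chromosome medians removed it was 0.31, as it lies on chromosome 6, whose median was -0.38.

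**Figure D3:**
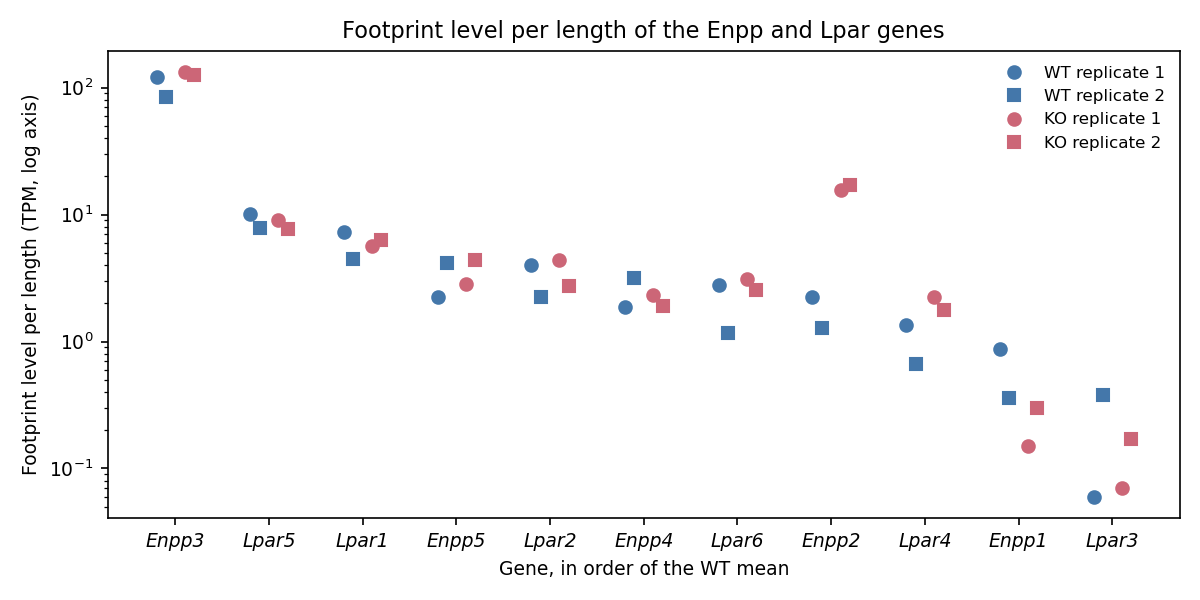
Footprint level per length (TPM, log axis) of the Enpp and Lpar genes with any counts, ordered by the WT mean. Circles are replicate 1 and squares replicate 2, blue is WT and red is KO. Enpp3 stands at 83.8 TPM or more in each library, and Enpp2 leaves the lower group for second place in KO.

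The RNA-seq tables, which the choice of the 9 genes did not use, held too few reads on most of them to follow a difference. All 9 genes together had 15.2 and 8 counts in the WT libraries and 8 and 20 counts in the KO libraries, against 1568 to 3452 footprint counts per Ribo-seq library. Enpp2 had 1 count in WT replicate 2 and 0 in the others, Enpp3 had 1 count in WT replicate 1 and 0 in the others, and Enpp1 had 0 in all. No mRNA difference of Enpp2 could be measured from these counts. A pooled count of 1 in WT has an exact 95% Poisson interval of 0.0253 to 5.57, and a count of 0 in KO one of 0 to 3.69. Enpp3 had footprints of 147 to 241 CPM, and Enpp2 of 34.8 and 36.7 CPM in KO. Those levels stood above the 13.7 to 19.7 CPM that 3 counts stood for in RNA-seq. RNA-seq thus held fewer counts of both genes than their footprint CPM would give at its depth, and the reason was not tested.

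Lpar6 was the only one of the 9 genes that passed the RNA-seq filter. It had 11 and 5 counts in WT and 6 and 13 in KO, or 52.0 and 22.8 CPM against 39.4 and 75.0 CPM. The groups overlapped, and the log2 fold change of 0.53 (SE 0.71) did not pass the edgeR quasi-likelihood test (adjusted p = 0.733). Single libraries set its direction, since it was 1.25 with WT replicate 1 left out and 0.94 with KO replicate 1 left out, but -0.02 with WT replicate 2 left out and -0.05 with KO replicate 2 left out. Among 2087 tested genes 6.37% were called in RNA-seq, and the KO libraries lay above the WT libraries for 30.1% and below for 21.7%. Of the 9 genes 0 were called in RNA-seq by edgeR or by DESeq2, and 0 had an unadjusted p under 0.05. Enpp3 had the most footprints of the family and Lpar6 the most RNA-seq counts. Rb1, on the other strand around Lpar6, had 0 to 1 counts per RNA-seq library.

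The genes around this signalling step were taken from 4 lists of LPA enzymes, sphingosine 1-phosphate (S1P) genes, targets of YAP and SRF, and extracellular nucleotide genes. Of their 77 genes 60 were tested in Ribo-seq, and by the edgeR quasi-likelihood test 2 rose and 0 fell. That is 3.33%, beside 2.44% of all tested genes. The median log2 fold change over the 60 was 0.25, beside 0.01 over all tested genes.

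Of 27 tested enzymes that make, acylate or dephosphorylate LPA, 0 were called by edgeR or DESeq2. By edgeR 4 had an unadjusted p under 0.05, beside 2387 of all 12315 tested genes. Their median log2 fold change was 0.14. Lowest in p were Ppap2b and Ppap2c, the older names of Plpp3 and Plpp2, surface phosphatases that break down LPA. Ppap2b had 10.3 and 8.45 CPM in WT and 21.3 and 15.5 CPM in the KO libraries (log2 fold change 0.97, SE 0.23, adjusted p = 0.0647 by edgeR). Ppap2c had 7.26 and 7.02 CPM in WT and 19.9 and 10.97 CPM in KO (1.11, SE 0.29, adjusted p = 0.0867 by edgeR). The KO libraries of both lay above their WT libraries, and both passed when WT replicate 1 was left out (adjusted p = 0.0153 and 0.0348 by edgeR). Ppap2c also passed when KO replicate 2 was left out (adjusted p = 0.0165 by edgeR). Neither passed when KO replicate 1 was left out, where Ppap2b stood at 0.78 (adjusted p = 0.334 by edgeR) and Ppap2c at 0.68 (0.484).

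The S1P list had 5 tested genes of 14. By edgeR and DESeq2 0 were called, 0 had an unadjusted p under 0.05, and the median log2 fold change was 0.13. Sphk1, a kinase that makes S1P, had -1.06 (adjusted p = 0.332 by edgeR) at 1.24 and 1.67 CPM in WT and 0.97 and 0.44 CPM in KO. The genes of chromosome 11, where Sphk1 lies, had a median of -0.25, and with the chromosome medians removed Sphk1 stood at -0.81. The KO values of Sphk1 rest on 9 and 5 counts, and its log2 fold change was -1.64 with KO replicate 1 left out and -0.60 with KO replicate 2 left out. Sgpl1, the lyase that degrades S1P, had a log2 fold change of 0.23 (adjusted p = 0.463 by edgeR).

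Targets of YAP and SRF, regulators of transcription, had the highest list median, 0.81. Of 14 tested, 1 rose and 0 fell, which is 7.14%, and 13 had positive log2 fold changes. DESeq2 called 4, beside 374 of all 12315 tested genes. KO and WT libraries did not overlap for 9, all with the KO higher, beside 24.3% of all tested genes. The gene that rose was Tagln, which encodes the actin-binding protein transgelin, at 28.1 and 12.9 CPM in WT and 61.2 and 84.5 CPM in KO (1.84, SE 0.36, adjusted p = 0.0488 by edgeR). It lost its call in 5 of 11 alternatives, one of them the fit without KO replicate 2 (adjusted p = 0.0897 by edgeR). In the RNA-seq tables Tagln had 3 and 0 counts in WT and 24 and 14 in KO, and it rose there too (adjusted p = 0.0254 by edgeR). That RNA-seq call was lost in 2 of the 10 alternatives that tested it. These were limma on log2(TPM + 1) (adjusted p = 0.105 by limma) and the fit without KO replicate 1 (log2 fold change 3.36). The list median was 1.19 without WT replicate 1, where 7 were called, and 0.50 without WT replicate 2.

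Of 14 tested genes for extracellular nucleotides, pyrophosphate and cGAMP, 1 rose and 0 fell (7.14%), with a median log2 fold change of 0.17. The gene was Nt5e, the surface 5′-nucleotidase CD73, which turns AMP, a product of ENPP1 and ENPP3, into adenosine. It rose from 1.24 and 0.36 CPM in WT to 4.83 and 5.83 CPM in the KO libraries (log2 fold change 2.68, SE 0.48, adjusted p = 0.0283 by edgeR). The groups did not overlap. Nt5e was called in the 10 alternatives that tested it, where its log2 fold change ran from 1.32 (limma on log2(TPM + 1)) to 3.88 (edgeR, WT replicate 1 left out).

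**Figure D4:**
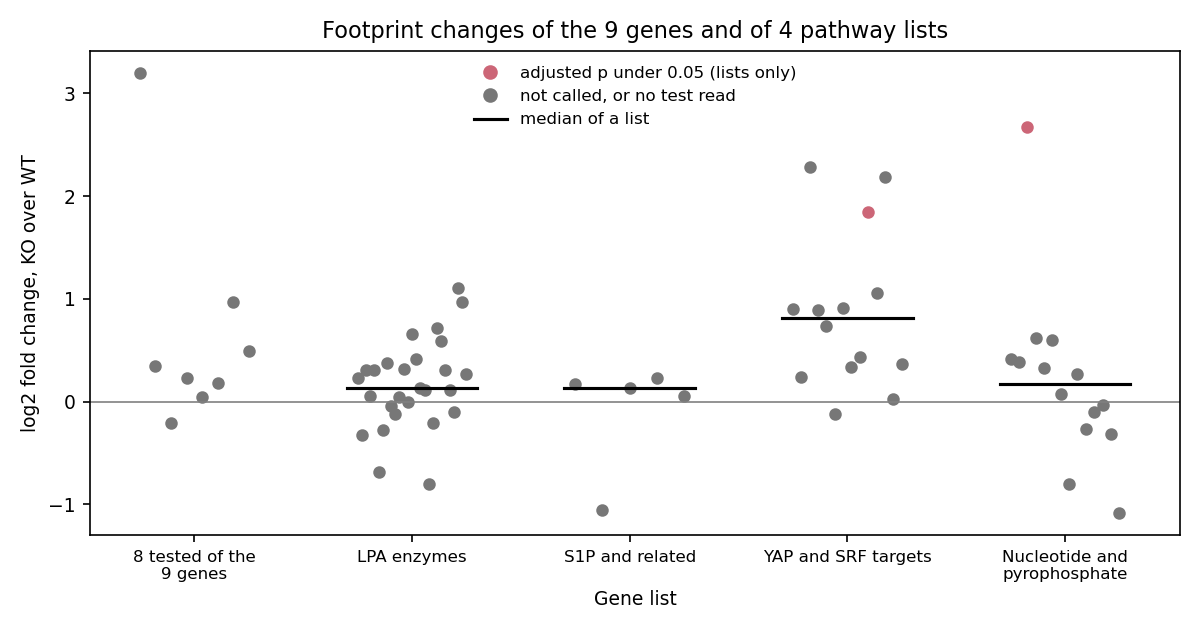
Log2 fold change of footprints (KO over WT) for the 8 of the 9 genes that passed the filter and for each tested gene of 4 pathway lists. Red points passed the edgeR test at an adjusted p under 0.05, no test is read for the 9 genes, and bars are list medians. Enpp2 is the top point at 3.20, and Tagln and Nt5e are the red points at 1.84 and 2.68.

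The genes with footprint patterns most like that of Enpp2 over the 4 Ribo-seq libraries were Fndc3c1, Igfbp5, Fras1, Arl4c and Gbp2b, among 8973 genes compared. Likeness was the root mean square difference of log2(CPM + 0.5) after centring each gene on its mean, and it was 0.13 for Fndc3c1 and 0.38 for Gbp2b. Fndc3c1, a fibronectin type III domain gene on the X chromosome, had 2.87 and 1.19 CPM in WT and 17.7 and 17.7 CPM in KO. Arl4c, a small GTPase of the ARF family, had 3.23 and 1.79 CPM in WT and 14.4 and 16.0 CPM in KO. The 5 genes lie on chromosomes other than that of Enpp2, and with a pseudocount of 2 in place of 0.5, 3 of them stayed among the nearest 5.

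Markers of other cell types also differed between the genotypes whose Enpp2 levels are compared. The 15 fibroblast markers summed to 215 and 114 CPM in WT and 483 and 688 CPM in KO, where 3 of 11 tested rose by edgeR, Tagln among them, and Lum was at 0 throughout. Dcn, another fibroblast marker, was at 0.35 CPM or less in each library. Pdgfra (7.74 and 9.17 CPM in WT, 4.08 and 3.22 CPM in KO) and Thy1 (20.2 and 25.1 CPM in WT, 14.8 and 16.5 CPM in KO) lay lower in KO. Neither was called. Tagln and Acta2 are in both the fibroblast list and the YAP and SRF list. The 15 markers of extraembryonic endoderm, the lineage of the yolk sac, summed to 1958 and 2020 CPM in WT and 1270 and 1536 CPM in KO, and 3 of 11 tested fell. Afp was at 0 in WT. The 11 mesoderm markers summed to 21.8 and 9.19 CPM in WT and 27.8 and 37.2 CPM in KO (3 of 7 tested rose). Kdr was the largest part of the WT sum, at 17.3 and 6.55 CPM in WT and 8.47 and 7.40 CPM in KO (not called). The called genes were T, Lhx1 and Fgf8, each with 3 counts or fewer per WT library. Fgf8 went from 0.19 and 0.12 CPM in WT to 6.44 and 8.79 CPM in KO. The KO libraries of Tbx6 lay below its WT libraries. The 10 trophoblast markers summed to 146 and 150 CPM in WT and 368 and 404 CPM in KO (3 of 7 rose). Those that rose were the keratins Krt8, Krt18 and Krt19. The KO libraries of Cdx2, Eomes and Hand1 lay above the WT libraries, those of Elf5 below, and Tfap2c, Gata3 and Ascl2 overlapped. The 10 neural markers summed to 182 and 125 CPM in WT and 138 and 111 CPM in KO (1 of 6 rose, Sox11, and Neurog2 was at 0 throughout). Tubb3 was the largest part of the neural sum, at 144 and 91.9 CPM in WT and 65.7 and 56.5 CPM in KO (not called). The part of other cell types in the Enpp2, Nt5e and Tagln values was not tested.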

How the data were processed

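Per the submitters' processing notes, mm10, RSEM and Bowtie2 2.3.4.3 were used. Per the file headers, the authors deposited RSEM expected counts (estimates that split shared reads), TPM, FPKM and gene lengths per symbol. Expected counts were rounded for the tests, CPM were counts over the library total, deposited TPM served for levels between genes, and deposited FPKM for 1 alternative. KO was set against WT within each assay with edgeR 4.0.16 (robust quasi-likelihood test, TMM, filterByExpr, Benjamini-Hochberg over all tested genes, called under 0.05). Standard errors came from the F statistics. DESeq2 1.42.0 and limma 3.58.1 were alternatives. Replicates of each pair differed beyond sampling noise (chi-square per degree of freedom 3.87 to 26.1). Simulated Ribo-seq counts (12141 genes) were given a single dispersion for all genes and independent libraries. In them 98.0% of 4-fold and 63.9% of 2-fold changes were recovered. Real genes with a wider replicate spread can be missed, as Col1a1 (fold 5.16, adjusted p = 0.132 by edgeR) and Acta2 (fold 4.56, adjusted p = 0.327 by edgeR) were.

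The 9 genes and all lists were chosen with earlier results of these data known. Besides the 9, the text names Mettl5, 4 further Enpp and Lpar genes, up to 6 called genes of each pathway list or else its 2 smallest p values, and the 5 genes most like Enpp2 with a mean count of at least 50. Rb1 was named for its overlap, and single markers were named after their values were seen. Gene positions came from GENCODE M21 and upstream windows from RefSeq (GRCm38.p6). A further list of genes is not reported here.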

Additional observations from a re-analysis of the deposited data

How the results depend on the processing

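The Ribo-seq comparison called 301 of 12315 genes. The count was 1110 with no filter on low counts, 186 where a mean count of 50 was required, 172 with limma on log2(TPM + 1), and 189 to 761 when a library was left out. The RNA-seq comparison called 133 of 2087 genes, 75 with DESeq2, 76 where a mean count of 50 was required, 37 with limma on log2(TPM + 1), and 73 to 242 when a library was left out. The causes were not tested. A fit with the replicate number as a block called 2960 genes in Ribo-seq and 155 in RNA-seq. Deviations of same-numbered libraries from their group means correlated by 0.433 in Ribo-seq and 0.054 in RNA-seq, and the deposited names of same-numbered Ribo-seq libraries share a tag whose meaning is not stated. No label gives the numbers a shared batch or day, so the pairing was not used. With the block, Enpp2 stood at 3.20 and Lpar4 at 1.01, and 5 LPA enzymes rose, Ppap2b and Ppap2c among them (adjusted p = 2.97e-06 and 2.12e-06 by edgeR), and 1 fell. In that fit 10 YAP and SRF targets rose, and 4 nucleotide genes rose and 2 fell. In Ribo-seq the log2 fold changes of Enpp2 (2.67 to 3.72 in 11 alternatives), Enpp3, Lpar4 and Lpar6 kept their sign in each alternative that tested them, while those of Enpp4, Enpp5, Lpar1 and Lpar2 turned when single libraries were left out. FPKM in place of TPM left the order of the 9 genes as it was. Within a library the 2 units are proportional, so this order could hardly change and the comparison is no check of it. With 2 libraries a group, an exact two-sided permutation test of a single gene cannot go below p = 0.333.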

Other observations

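The tested genes nearest to Enpp2 on chromosome 15 were looked up after its values were seen. Of the 8 nearest tested genes, 4 on each side, 1 was called lower by edgeR and 0 higher, beside 2.44% of all tested genes called. That gene was Aard, at 14.0 and 12.6 CPM in WT and 6.65 and 5.40 CPM in the KO libraries (log2 fold change -1.14, adjusted p = 0.0412 by edgeR). Aard is not adjacent, as its start lies at -2799 kb from that of Enpp2. The nearest tested gene on that side, Ext1, lies at -1771 kb. On the other side Taf2, a subunit of the general transcription factor TFIID, lies at 176 kb and Dscc1, a cohesion factor, at 237 kb. Taf2 and Dscc1 had log2 fold changes of -0.21 and -0.47 and were not called.

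Tmem173, the older name of Sting1, encodes the receptor for cGAMP, which ENPP1 degrades, and it was also picked after its values were seen. It had 5.06 and 4.17 CPM in WT and 1.93 and 2.35 CPM in KO, with ranges that did not overlap and its log2 fold change of -1.08 had an adjusted p = 0.127 by edgeR. Mb21d1, the older name of the cGAMP synthase gene Cgas, had 1.85 and 2.52 CPM in WT and 2.37 and 1.14 CPM in KO. Slc20a1, a phosphate transporter, had 90.6 and 77.5 CPM in WT and 131 and 124 CPM in KO (0.62, adjusted p = 0.0749 by edgeR).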
